A study of Drosophila melanogaster with 2 samples.

Results

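The genes for the enzymes that carry glucose phosphate to pyruvate were examined in whole adult male Drosophila melanogaster, as the rows of the deposited table whose gene symbol was Pgi, Pfk, Ald, Tpi, Gapdh1, Gapdh2, Pgk, Pglym78, Eno or PyK. All 10 genes had a row of their own, among 15906 features. Polyadenylated RNA came from males aged 15 days. The control library came from da-Gal4/+ flies, which carry the ubiquitous daughterless driver and, by their label, no UAS transgene. The miR-305 library came from da-Gal4/UAS-miR305 flies, in which the same driver expresses the microRNA miR-305. Each group had 1 library, so no difference given here has a replicate check, no test between the groups exists, and how many flies were pooled for a library is not stated in the labels. The title of the study names miR-305 as a promoter of ageing and places the comparison in a search for its target messenger RNAs.

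Glycolysis splits glucose phosphate into triose phosphates in a preparatory stage that spends ATP, and turns these into pyruvate in a payoff stage that returns ATP and NADH. In insects the pathway is known above all for fuelling flight muscle, where the triose phosphates also feed a glycerol phosphate shuttle that takes the place of lactate formation. A whole-fly library sums all tissues, so fewer cells of a type and less RNA per cell cannot be told apart.

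The locus of the overexpressed microRNA, mir-305, was listed at 0 in control and had 546 FPKM in the miR-305 library. FPKM counts sequenced fragments per kilobase of a transcript, relative to all that mapped in that library. The FPKM values summed to 967511 in the control library and to 1176985 in the miR-305 library, a 1.22-fold difference in total that bears on every ratio below. The total count of reads is unknown for both libraries. All genes of the muscle, fat body, testis, accessory gland and neuron marker lists were above 0 in both libraries.

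Glycolytic enzyme genes differed little between the libraries. With the deposited scaling, 9 of 10 had a higher FPKM in the miR-305 library and Ald had a lower one. The log2 ratio of FPKM + 1, miR-305 over control, ran from -0.14 for Ald to 0.55 for Pgi, with a median of 0.21. None of the 10 genes (0 higher, 0 lower) reached 2-fold. Among the 11936 features whose FPKM averaged at least 1, 2.36% were at least 2-fold higher and 1.74% at least 2-fold lower, 4.11% in all. A ratio above 0 was found in 46.4% of those 11936 features. Among the 1181 features whose FPKM averaged at least 100, the range of level in which 9 of the 10 enzyme genes lie, 66.2% had a ratio above 0 and 6.69% were past 2-fold. The median log2 ratio was -0.025 over the 11936 features and 0.13 over the 1181 abundant ones, so the enzymes' median lay 0.23 above the first and 0.071 above the second. The quartiles of the abundant features were -0.061 and 0.37, and 7 of the 10 enzyme genes fell inside that span.

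**Figure D1:**
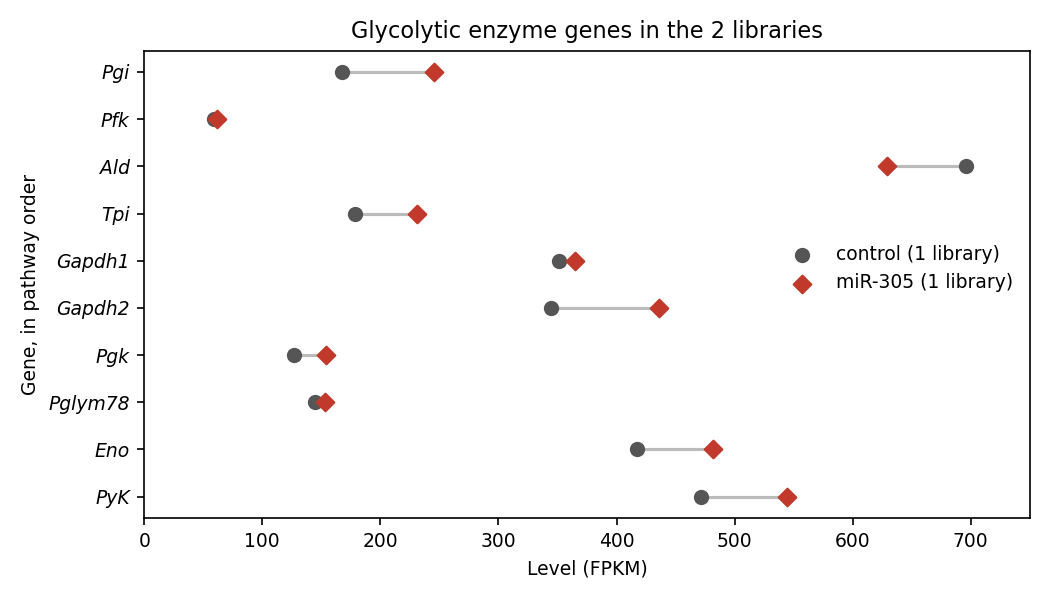
Level in FPKM (horizontal axis, linear from 0) of each glycolytic enzyme gene in pathway order (vertical axis), with 1 point for the control library (grey circles) and 1 for the miR-305 library (red diamonds). The points of Pfk nearly coincide at 59.3 and 61.4 FPKM, Pgi shows the widest gap relative to its level, and Ald is the gene whose control point lies to the right.

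In the preparatory stage, with the deposited scaling, the first and the last of the 4 enzymes were farther from equal than those between them. Pgi encodes phosphoglucose isomerase, which turns glucose 6-phosphate into fructose 6-phosphate (FBgn0003074, chromosome 2R, 8910900 to 8914069 on dm6). It had 168 FPKM in the control library and 245 FPKM in the miR-305 library, a 1.46-fold difference (log2 ratio 0.55). This was the highest ratio among the 10, and 93.3% of the 11936 features had a lower one. Pfk encodes phosphofructokinase, the main point of control of the pathway (FBgn0003071, 2R, 10109740 to 10117457). It had 59.3 FPKM in control and 61.4 FPKM in miR-305, which is nearly equal (1.04-fold, log2 ratio 0.050).

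Ald encodes aldolase, which cleaves fructose bisphosphate into triose phosphates, and is annotated now as Ald1 (FBgn0000064, 3R, 26254069 to 26261591). It had 696 FPKM in control and 629 FPKM in miR-305, which made it the only enzyme gene of the 10 that was lower in the miR-305 library with the deposited scaling (1.11-fold lower, log2 ratio -0.14). Tpi encodes triose phosphate isomerase, which interconverts the products of aldolase (FBgn0086355, 3R, 30132981 to 30134599). It had 178 FPKM in control and 231 FPKM in miR-305, a 1.29-fold difference (log2 ratio 0.37). The 4 preparatory enzymes together had 1101 FPKM in control and 1167 FPKM in miR-305, a ratio of 1.06 that joins higher Pgi and Tpi with lower Ald.

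All 6 genes of the payoff stage had a ratio above 0 with the deposited scaling. Glyceraldehyde 3-phosphate dehydrogenase, which makes NADH, is encoded by a pair of genes. Gapdh1 (FBgn0001091, 2R, 7791901 to 7793380) had 352 FPKM in control and 365 FPKM in miR-305 (1.04-fold, log2 ratio 0.055). Gapdh2 (FBgn0001092, X, 15868145 to 15869661) had 344 FPKM in control and 436 FPKM in miR-305 (1.27-fold, log2 ratio 0.34). The pair was thus near equal in control and unequal in the miR-305 library, with a Gapdh2 to Gapdh1 ratio of 0.979 and 1.19. The coding sequences of these paralogs are closely alike, so the split of 51-bp reads between them is uncertain, and their sum is the firmer value: 696 FPKM in control and 801 FPKM in miR-305, a ratio of 1.15.

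Pgk encodes phosphoglycerate kinase, the first enzyme of the pathway to yield ATP (FBgn0250906, 2L, 2746880 to 2753068). It had 127 FPKM in control and 154 FPKM in miR-305 (1.21-fold, log2 ratio 0.27). Pglym78 encodes phosphoglycerate mutase, which moves the phosphate group within phosphoglycerate (FBgn0014869, 3R, 29148248 to 29149901). It had 145 FPKM in control and 153 FPKM in miR-305, which is close to equal (1.06-fold, log2 ratio 0.079).

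Eno encodes enolase, which makes phosphoenolpyruvate (FBgn0000579, 2L, 1724768 to 1729636). It had 418 FPKM in control and 482 FPKM in miR-305 (1.15-fold, log2 ratio 0.20). PyK encodes pyruvate kinase, which makes pyruvate and ATP (FBgn0267385, 3R, 22367536 to 22372746). It had 471 FPKM in control and 544 FPKM in miR-305 (1.15-fold, log2 ratio 0.21), so the last pair of enzymes had nearly the same ratio. The 6 payoff genes summed to 1857 FPKM in control and 2134 FPKM in miR-305, a ratio of 1.15.

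At a smaller threshold, a log2 ratio of 0.32 in either direction, Pgi, Tpi and Gapdh2 were higher, which is 3 of 10 genes (30%), and 0 were lower. Of the 1181 abundant features 28.9% were higher and 9.48% lower by at least as much, and of all 11936 features 14.3% and 18.1%. The share of enzyme genes past this threshold was therefore near that of other abundant features.

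**Figure D2:**
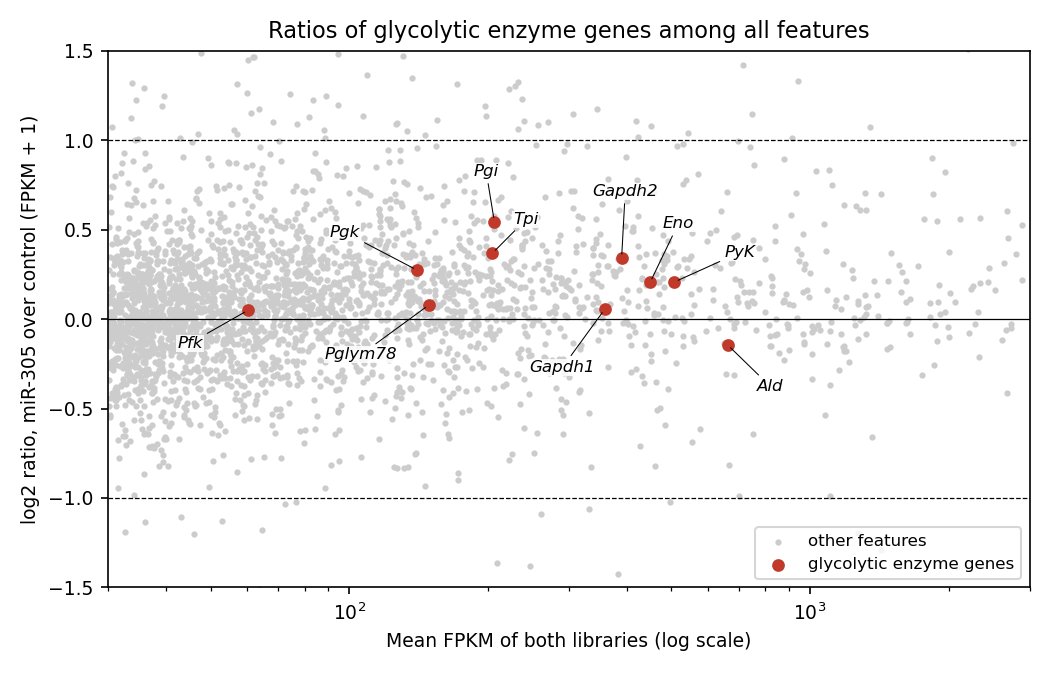
The log2 ratio of FPKM + 1, miR-305 over control (vertical axis), against the mean FPKM of both libraries (horizontal axis, log scale from 30 to 3000) for 3001 features, with the 10 glycolytic enzyme genes in red, a solid line at equal levels and dashed lines at 2-fold. The enzyme genes lie within the cloud of features of like level, between -0.14 (Ald) and 0.55 (Pgi), and 123 features of this range of level or above it lie outside the plotted area.

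The order of levels along the pathway was much the same in both libraries. Ald was the most abundant of the 10 genes in each, followed by PyK and Eno, and Pfk was the least abundant. Within each of the pairs Gapdh1 and Gapdh2, Pgi and Tpi, and Pgk and Pglym78 the order switched between the libraries, so these neighbours cannot be ranked from 1 library per group. Aldolase FPKM was 11.7 times that of Pfk in control and 10.3 times that of Pfk in miR-305. Relative to PyK it was 1.48 times as high in control and 1.16 times as high in miR-305, a ratio within each library that no scaling between libraries can alter.

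Ald made up 23.5% of the summed FPKM of the 10 genes in control and 19.1% in miR-305. Pgi made up 5.67% and 7.43%, and Pfk 2.003% and 1.86%. Most of these genes stood high in the libraries as a whole: 9 of 10 were among the 10% of features with the highest FPKM in each. Ald ranked 227 of 15906 in control and 268 in miR-305. Pfk, the gene outside those 10%, ranked 1738 and 1779.

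The annotation places other genes on the opposite strand of 4 of the 10. The antisense RNA CR44321 shares 338 exonic nucleotides with Ald and had 41.0 and 42.4 FPKM in control and miR-305. Rrp40, a subunit of the exosome, shares 362 exonic nucleotides with Eno and had 12.7 and 11.2 FPKM. Cwc25 shares 65 nucleotides with Pgk and the gene listed as ligatin shares 6 with Pglym78. Whether counting used the strand is not stated in the labels, so reads of the shared stretches cannot be assigned with certainty. The levels of CR44321 and Rrp40 were far below those of Ald and Eno in both libraries.

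The direction of most of these small differences depended on how the libraries were scaled. The 10 genes summed to 2958 FPKM in control and 3300 FPKM in miR-305, a ratio of 1.12, while all features together had a ratio of 1.22. Their share of all FPKM was accordingly lower in the miR-305 library, at 0.280% against 0.306% in control. With both libraries set to the same sum, 3 of the 10 genes (Pgi, Tpi and Gapdh2) stayed above 0, against 18.4% of the 11936 features and 33.4% of the 1181 abundant ones, and the median log2 ratio was -0.076. That scaling put the median of all features at -0.27, so the enzymes' median lay above it there too. The place of Gapdh2 above 0 rests on its uncertain split of reads from Gapdh1. The summed FPKM of that pair had a deposited ratio of 1.15, below the 1.22 of all features. Pgi was 1.20-fold higher with the same sum, and Ald was lower with the same sum (log2 ratio -0.43). Part of the difference in total came from very abundant genes. When the 100 features of highest mean FPKM were left out of the sum, 6 of the 10 genes stayed above 0. Pfk (-0.060), Gapdh1 (-0.056) and Pglym78 (-0.031) joined Ald below it. The median of all features was -0.12 under that scaling, and the share of all features above 0 was not computed for it.

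**Figure D3:**
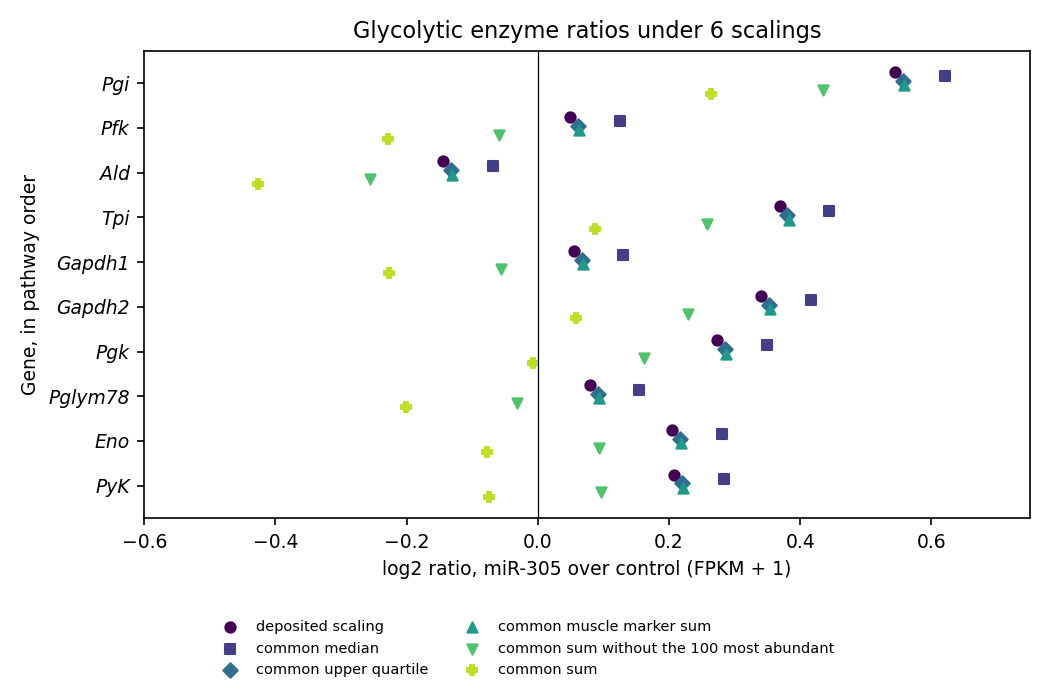
The log2 ratio of FPKM + 1, miR-305 over control (horizontal axis), of each glycolytic enzyme gene (vertical axis, pathway order) under the deposited scaling and 5 others, 1 symbol for each. Pgi, Tpi and Gapdh2 lie right of 0 under each of the 6 scalings shown, Ald lies left of 0 under each, and the other 6 genes change side when the libraries are set to the same sum. The split of reads between Gapdh1 and Gapdh2 is uncertain.

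Genes for muscle proteins, whose tissue relies on glycolysis, were near equal in the same libraries with the deposited scaling. The 16 matched muscle markers summed to 3803 FPKM in control and 3767 FPKM in miR-305, with a median log2 ratio of -0.046, 7 above 0 and 9 below. A ratio above 0 was found in 46.4% of the 11936 features and 66.2% of the 1181 abundant ones. With the same sum 2 of the 16 muscle markers were above 0, against 18.4% and 33.4%. Their median was -0.33 there, and that of all features was -0.27. Argk, which encodes arginine kinase, an energy buffer of muscle, had 574 FPKM in control and 700.3 FPKM in miR-305, and Mf, which encodes a myofilament protein, had 559 and 427 FPKM. The flight muscle actin gene Act88F had 14.8 and 29.6 FPKM, a plain ratio of 2.01 that came to 0.96 on the log2 scale of FPKM + 1, short of the threshold. The summed FPKM of the enzyme genes was 0.778 of the muscle sum in control and 0.876 in miR-305.

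Storage protein genes of the fat body and accessory gland genes differed more widely. Of 7 fat body markers 3 were at least 2-fold higher in the miR-305 library, against 2.36% of the 11936 features, and the list summed to 1695 FPKM in control and 2247 FPKM in miR-305. The storage protein genes Lsp2 (159 and 514 FPKM) and Lsp1alpha (1.18 and 9.21 FPKM) were farthest apart, and the abundant Obp99b had 913 and 1015 FPKM. The fatty acid synthase gene FASN1 had 320.0 and 369 FPKM. Of the 7 fat body markers 6 had a ratio above 0, against 46.4% of the 11936 features. The other, apolpp, listed as Rfabg, was lower in the miR-305 library (251 and 235 FPKM). The 5 matched accessory gland markers summed to 13839 FPKM in control and 25238 FPKM in miR-305, and 1 of them, Acp76A, was at least 2-fold higher (32.3 and 119 FPKM). Both counts, 3 of 7 and 1 of 5, were the same with the same sum. The share of all features at least 2-fold higher was not computed under that scaling. The sex peptide gene SP, the most abundant of the matched accessory gland markers, had 11863 and 21688 FPKM. Acp53Ea had 1418 and 2505 FPKM, and Acp62F had 200.1 and 395 FPKM. The 6 neuron markers had a median log2 ratio of -0.31, with nSyb at 39.9 and 38.7 FPKM, Appl at 9.66 and 6.72 FPKM, and Syt1 at 9.12 and 6.06 FPKM. The part of any tissue's share of the RNA in the small differences of the enzyme genes was not tested.

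With the deposited scaling, paralogs of the glycolytic enzymes lay on the other side of 0 from all the enzyme genes but Ald. All 10 paralogs had a lower FPKM in the miR-305 library, and 53.6% of the 11936 features did so. The paralogs had a median log2 ratio of -0.37, their range was -0.62 to -0.14, and 0 of 10 reached 2-fold. A log2 ratio at least 0.32 below 0 was found in 7 of them, against 18.1% of the 11936 features. With the same sum 0 of the 10 paralogs were above 0, with a median of -0.64. Above 0 there were 3 of the 10 enzyme genes and 18.4% of the 11936 features, and the median of all features was -0.27. The 5 paralogs of pyruvate kinase, which are known from the testis, summed to 75.1 FPKM in control and 54.9 FPKM in miR-305. Among them CG12229 had 32.0 and 24.8 FPKM, CG7069 had 15.1 and 11.3, CG2964 had 14.8 and 9.28, CG11249 had 7.69 and 4.93, and CG7362 had 5.62 and 4.63.

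The ratio of paralog to main gene within a library does not depend on scaling between libraries. The 5 pyruvate kinase paralogs amounted to 15.9% of PyK FPKM in control and 10.1% in miR-305. The phosphoglycerate mutase paralog Pglym87 had 59.6 FPKM in control and 40.7 FPKM in miR-305, which is 41.1% and 26.6% of Pglym78. A further mutase-like gene, CG7059, had 45.0 and 40.7 FPKM. The phosphoglycerate kinase paralog CG9961 had 10.2 and 7.003 FPKM, or 8.01% and 4.55% of Pgk. The aldolase paralog CG5432, now Ald2, had 24.3 and 21.2 FPKM and amounted to 3.49% and 3.37% of Ald, nearly the same share in both libraries. The Gapdh-like gene CG9010 had 25.2 and 19.8 FPKM.

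Testis markers were lower over the same libraries. A ratio below 0 was found in 10 of 11 matched genes, against 53.6% of the 11936 features, with a median of -0.47 on the log2 scale. Mst84Db went the other way, with 240 FPKM in control and 370 FPKM in miR-305 (log2 ratio 0.62). The list summed to 2730 FPKM in control and 1965 FPKM in miR-305. No defining marker was at 0 in either library. Mst84Dd, which encodes a sperm tail protein, had 355 and 166 FPKM and was, as deposited, the 1 marker at least 2-fold lower, against 1.74% of the 11936 features. With the same sum 3 of the 11 were at least 2-fold lower. That scaling lowered the ratios of other genes too, with a median of all features of -0.27. The share of all features at least 2-fold lower was not computed there. Mst84Da had 932 and 469 FPKM, and Mst87F had 491 and 383 FPKM. The part of these testis RNAs in the lower levels of the paralogs was not tested.

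Among the routes that feed glycolysis, 0 of 11 genes for hexokinases and for glycogen and trehalose metabolism passed 2-fold. Their median log2 ratio was 0.020 with 8 above 0, against 46.4% of the 11936 features and 66.2% of the 1181 abundant ones. When both libraries had the same sum, 4 were above 0, against 18.4% and 33.4%. The median of the 11 genes was -0.26 there, and that of all features was -0.27. Pgm, which links glycogen to the substrate of Pgi, had 233 FPKM in control and 383 FPKM in miR-305 (log2 ratio 0.72), UGP, which makes UDP-glucose, had 326 and 469 FPKM, and the trehalose synthase gene Tps1 had 432 and 535 FPKM. The hexokinase genes with the widest difference were those of the testis, Hex-t2 (29.3 and 21.4 FPKM) and Hex-t1 (11.2 and 9.01 FPKM), both lower. Hex-C, the most abundant hexokinase gene, was higher (188 and 211 FPKM), and Hex-A was equal within 1.01-fold (71.8 and 72.5 FPKM). Of the 4 matched genes of gluconeogenesis, which runs the pathway in reverse, 0 passed 2-fold. Pepck, which makes phosphoenolpyruvate, had 484 and 611 FPKM, and fbp, which opposes Pfk, had 121 and 140 FPKM. CG10924, a second gene for the enzyme of Pepck, had 7.85 and 5.27 FPKM.

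The pentose phosphate pathway, which branches off at the substrate of Pgi and returns at fructose 6-phosphate and triose phosphate, showed wider differences than glycolysis itself. Its 5 matched genes were all higher in the miR-305 library, against 46.4% of the 11936 features and 66.2% of the 1181 abundant ones. Their log2 ratios ran from 0.25 to 1.29, with a median of 0.61. With the same sum 4 of the 5 stayed above 0 (median 0.33), against 18.4% and 33.4%. Pgd, which encodes 6-phosphogluconate dehydrogenase, a source of NADPH, was the 1 gene past 2-fold, with 128 FPKM in control and 315 FPKM in miR-305 (2.45-fold, log2 ratio 1.29). Its log2 ratio was 1.01 with the same sum. The transaldolase gene Taldo, listed as Tal, had 397 and 681 FPKM (log2 ratio 0.78), and the transketolase gene CG8036 had 304 and 466 FPKM (log2 ratio 0.61). Both of these enzymes return carbon to glycolysis. The difference between this list and the glycolytic enzymes was not tested.

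Of 9 genes for the fates of triose phosphate and pyruvate 0 passed 2-fold and 8 had a ratio above 0, against 46.4% of the 11936 features and 66.2% of the 1181 abundant ones, with a median of 0.33. Gpdh, which draws triose phosphate into the glycerol phosphate shuttle, had 340.1 FPKM in control and 507 FPKM in miR-305 (log2 ratio 0.58). ImpL3, the lactate dehydrogenase gene now called Ldh, had 32.6 and 48.5 FPKM (log2 ratio 0.56), and CG1640, an alanine aminotransferase gene, had 129.8 and 191 FPKM (log2 ratio 0.56). With the same sum 5 of the 9 stayed above 0, against 18.4% and 33.4%.

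The citric acid cycle, which oxidises the acetyl group made from pyruvate, had 14 matched genes on both sides of 0 with a median of 0.064, 9 above 0 and 0 past 2-fold. A ratio above 0 was found in 46.4% of the 11936 features and 66.2% of the 1181 abundant ones. With the same sum 2 of the 14 were above 0, against 18.4% and 33.4%. Their median was -0.22 there, and that of all features was -0.27. Nc73EF, a subunit of the oxoglutarate dehydrogenase complex, was the lowest (391 FPKM in control and 271 in miR-305), and SdhC (401 and 557 FPKM) was the highest, with the cytosolic enzymes Idh (577 and 794 FPKM) and Mdh1 (509 and 610 FPKM) also above 0.

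The 5 matched genes for transcription factors known to act on glycolytic genes had log2 ratios from -0.20 to 0.029 with the deposited scaling. ERR, the oestrogen-related receptor that switches on glycolysis in fly larvae, had 35.8 FPKM in control and 35.9 FPKM in miR-305. The hypoxia factor gene sima had 20.5 and 20.9 FPKM, its partner tgo had 6.29 and 5.35 FPKM, and the sugar sensor gene Mondo, listed as Mio, had 17.3 and 16.5 FPKM. Of the 5 matched regulators 0 passed 2-fold, and with the same sum their median log2 ratio was -0.27 with 0 above 0, where the median of all features was also -0.27. Another listed regulator, Myc, shares a feature with CR44999 and was left out of these counts. That feature had 5.70 FPKM in control and 3.56 FPKM in miR-305 (log2 ratio -0.56).

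**Figure D4:**
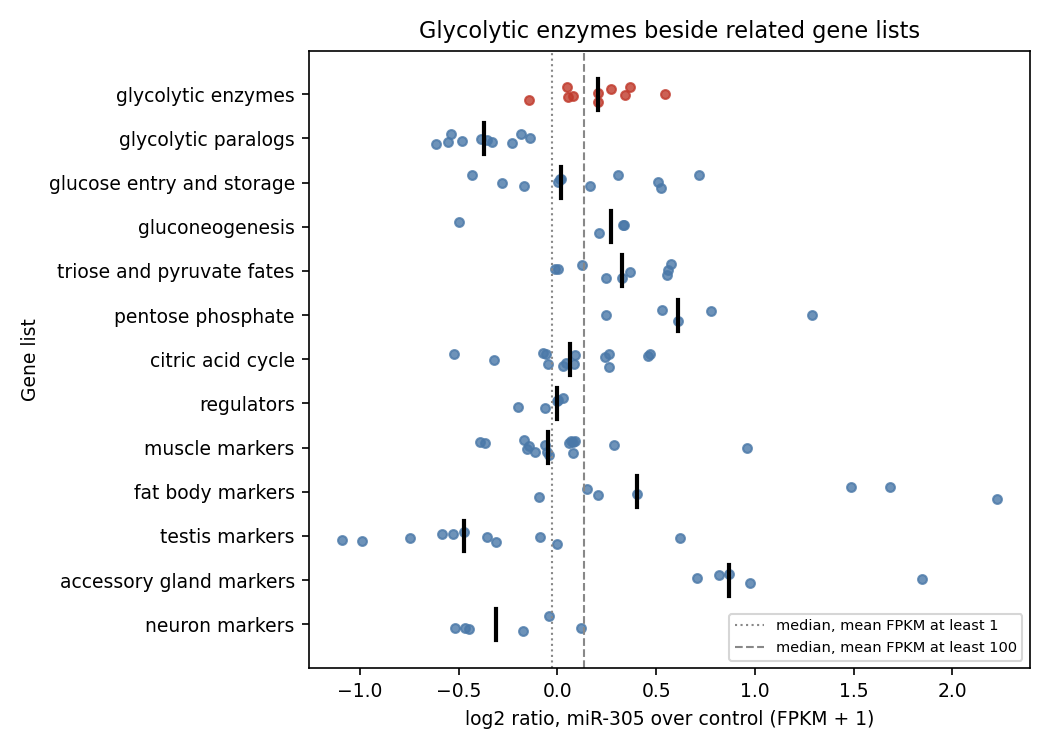
The log2 ratio of FPKM + 1, miR-305 over control (horizontal axis), of each gene in 13 lists (vertical axis, scattered within a list so that points do not overlap), with black bars for list medians and grey lines for the medians of all features whose FPKM averaged at least 1 (dotted) and at least 100 (dashed). The glycolytic enzymes (red, median 0.21) lie near the dashed line, their paralogs (median -0.37) lie left of both lines beside the testis markers, and the pentose phosphate genes (median 0.61) lie right of both.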

How the data were processed

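The authors deposited 1 FPKM value for each library and feature, per the file headers. Libraries were made with a directional kit and read as 51-bp single ends, per the labels' protocols. FastQC 0.11.5, TopHat2 2.0.13, Cufflinks 2.2.1 and dm6 are named in the submitters' processing notes. Low values showed no clear steps of whole reads, so depth is unknown and intervals for counting error could not be computed.

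Log2 ratios used FPKM + 1, which understates differences of low genes; folds are plain ratios. Features whose FPKM averaged at least 1 formed the background, and 2-fold was the threshold. List genes were matched by symbol or RefSeq synonym within the deposited locus; features with several symbols (634) entered no list. Gene coordinates are 1-based from Ensembl 115 (dm6 coordinates). The members and lists were chosen with earlier results of these data known. Named were all members and paralogs and, from each other list, the 2 most abundant genes and the 2 with the largest absolute ratio. Hex-A, Hex-C, Hex-t1, Hex-t2, apolpp, Mst84Db, Myc, sut4, Sodh-1 and the genes overlapping members were named after their values were seen. Planned searches of promoters, proteins and miR-305 seed sites were not run, as no sequences were used here. Alternatives were pseudocounts, filters and scalings; scaling to the muscle marker sum and the lists of sugar transport and alcohol metabolism were added after seeing the data. Calculations used Python 3.11.15, numpy 2.4.6, pandas 2.3.3 and matplotlib 3.10.9, and were tested on simulated data.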

Additional observations from a re-analysis of the deposited data

How the results depend on the processing

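No paired analysis was possible because each group has 1 library, and no library could be left out. Under every alternative run, 0 of the 10 glycolytic enzyme genes passed 2-fold. Values were taken as unmoved within 0.1 on the log2 scale, since no replicate spread exists. With the same sum, the median log2 ratio of the enzymes turned to -0.076 and their summed ratio to 0.917, and Pfk (-0.23), Gapdh1 (-0.23), Pgk (-0.0076), Pglym78 (-0.20), Eno (-0.077) and PyK (-0.075) turned negative. Without the 100 most abundant features in the sum, the median was 0.095 and the summed ratio 1.03, and Pfk (-0.060), Gapdh1 (-0.056) and Pglym78 (-0.031) turned negative. These changes follow from the scaling factors. The median of all features was -0.025 as reported, 0.014 at a mean FPKM of at least 10, 0.13 at 100 and 0.042 with a common median. Relative to it, the enzymes' median went from 0.23 to 0.072 at a mean FPKM of at least 100. There the list medians, relative to all features, were 0.14 for gluconeogenesis and 0.17 for triose and pyruvate fates. The citric acid cycle had -0.071 (0.090 as reported), muscle markers -0.12, fat body markers 0.043, testis markers -0.69 and accessory gland markers 0.71. All matched citric acid cycle genes passed that filter, so for that list only the median of all features moved. The other lists named here also lost genes, and the cause of their changes was not tested. Regulators turned to -0.0012 without a filter and -0.013 at a mean FPKM of at least 10, where fat body markers had 0.29 and neuron markers -0.058. Neuron markers had -0.13 with a pseudocount of 5. With a common muscle marker sum, chosen after seeing the data, the enzymes' values were unmoved. Unknown depth and single libraries limit every value.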

Other observations

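Genes on either side of glycolysis that no comparison above used were read from lists written after the values were seen. Of 8 sugar transporter genes 0 passed 2-fold. The trehalose transporter gene Tret1-1, the most abundant, had 360.2 FPKM in control and 332 FPKM in miR-305. The neighbours sut1 (23.8 and 35.7 FPKM) and sut2 (4.82 and 8.45 FPKM) were higher in the miR-305 library, with log2 ratios of 0.57 and 0.70, while sut4 (31.2 and 24.5 FPKM) was lower. Men, which encodes malic enzyme, a source of NADPH that makes pyruvate, had 375 FPKM in control and 533 FPKM in miR-305 (log2 ratio 0.51), and 0.22 with the same sum. The aldehyde dehydrogenase gene Aldh had 485 and 620.0 FPKM. The feature that joins the sorbitol dehydrogenase gene Sodh-1 with CG1979 had 211 and 478 FPKM (log2 ratio 1.17), and its reads cannot be divided between the genes.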
